A study of Mus musculus with 2 samples.

Results

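The genes of the dystrophin-associated glycoprotein complex and of the nuclear lamina were examined in mouse cardiomyocytes (MCMs) after knockdown of *Ppp2r5d*. The 9 genes were *Dmd*, *Utrn*, *Dag1*, *Sgca*, *Sgcb*, *Sgcd*, *Sgce*, *Lmna* and *Emd*, out of 37074 gene names on the microarray. All non-control probes that carried 1 of these gene names were taken, which gave 35 of 56605 probes. The rule uses gene names and no measured value, although the genes were listed with earlier results of these data known.

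Dystrophin, the product of *Dmd*, links the actin cytoskeleton to the muscle cell membrane, and utrophin (*Utrn*) is its close paralogue. Dystroglycan (*Dag1*) crosses the membrane and binds laminin outside the cell, and the sarcoglycans stabilise the assembly in muscle. Lamin A/C (*Lmna*) forms the meshwork under the inner nuclear membrane, where emerin (*Emd*) is anchored, and inherited loss of several of these proteins causes muscular dystrophy with cardiomyopathy.

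MCMs were bought from a supplier and used after passaging. MCMs were transfected with siRNA-NC, a negative control, or with siRNA-*Ppp2r5d*, which targets a regulatory subunit of protein phosphatase 2A. Both cultures were moved to medium without glucose 48 h after transfection and were collected at 64 h, and the labels of these arrays name no other treatment. RNA of each condition was hybridized to 1 one-colour array, so each difference compares 2 arrays, has no replicate check and carries no p-value.

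On both arrays, 59305 spots were not controls. The share well above background was 59.9% in siRNA-NC cells and 59.3% in knockdown cells, with 0 saturated spots. Both arrays lay on the same slide. The scanner software's background-corrected intensity was put on a log2 scale and taken relative to the array's own 75th percentile. The intensity at that percentile was 592 with siRNA-NC and 519 with siRNA-*Ppp2r5d*, a log2 difference of -0.19. A probe whose intensity was slightly lower for siRNA-*Ppp2r5d* can therefore have a log2 fold change above 0. Fold changes below are siRNA-*Ppp2r5d* against siRNA-NC on this scale, and a gene's value is the mean over those of its probes with signal well above background in both conditions. Intensities depend on the probe, so a level was compared between the arrays and not between probes. In RNA of whole cultures, fewer cells of a type and less RNA per cell cannot be told apart.

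*Ppp2r5d* was measured by 1 probe, at chr17:46819940-46819973 on the minus strand of mouse build mm9. This interval covers 34 bases, fewer than the 60 bases of the probe, so it places only part of the probe. The probe gave an intensity of 4701 with siRNA-NC and of 676 with siRNA-*Ppp2r5d*, a log2 fold change of -2.61 or 6.09-fold lower. The targeted gene was thus lower on the array with its label. The siRNA has 19 bases and shared a run of at most 7 bases with any probe of the 9 genes. Its run with the *Ppp2r5d* probe itself was 5 bases, so this comparison covers the probes and not the rest of a transcript. Off-target action of the siRNA was not tested.

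The labelled cell type was set against marker genes. Of 16 cardiomyocyte markers, 10 were well above background for siRNA-NC and 12 for siRNA-*Ppp2r5d*, and *Myl2*, *Myl7*, *Actn2* and *Pln* were not well above background on either. Some of those counted were dim, *Nppa* at 16.6 and 22.4. *Myh6* (14.3) and *Ryr2* (19.3) counted only for siRNA-*Ppp2r5d* and were dim as well. The brightest was *Actc1*, at 6443 and 5268. The level of the cardiomyocyte markers summed over detected probes, in multiples of the 75th percentile, was 17.9 and 19.6. Such sums follow the brightest probes and are given to compare the 2 arrays within a list, not one list with another. Of the other lists, 8 of 10 fibroblast markers were well above background, with a summed level of 899 and 975, and 6 of 6 smooth muscle markers, with 307 and 312. Skeletal muscle markers were detected for 6 of 7 genes, *Myod1* and *Myog* included, with a summed level of 7.77 and 10.2. Endothelial markers were detected for 1 of 6 genes with siRNA-NC and 2 with siRNA-*Ppp2r5d*, with a summed level of 0.094 and 0.12. Leukocyte markers were detected for 5 of 6 genes (summed level 13.5 and 11.8) and epithelial markers for 2 and 3 of 6 (8.99 and 6.89). Single markers differed more than the sums. *Cnn1* of the smooth muscle list was 5.31-fold higher for siRNA-*Ppp2r5d*, *Krt8* of the epithelial list 4.47-fold, *Tnnt3* of the skeletal muscle list 2.33-fold and *Lum* of the fibroblast list 2.12-fold. These were the markers past 2-fold and measured on both arrays. The cultures are called MCMs after their label. The part of cell composition in the values below was not tested.

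Among the 9 genes, 8 had at least 1 probe well above background on both arrays, and *Dmd* had none. Of the 8 measured genes, 4 were lower and 4 were higher for siRNA-*Ppp2r5d*. None of them was 2-fold different, against 1.93% of 20311 genes measured the same way, 0.871% higher and 1.06% lower. None was 1.5-fold different either, against 7.98% of all genes, 3.33% higher and 4.64% lower. At these shares less than 1 gene in 8 would pass each threshold, so a count of 0 does not set the 8 genes apart from the rest. The median log2 fold change of the 8 genes was -0.01, and that of all genes was 0.02, with quartiles of -0.16 and 0.18. The highest of the 8 genes was *Sgcb* at 0.30 and the lowest was *Sgcd* at -0.44.

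**Figure D1:**
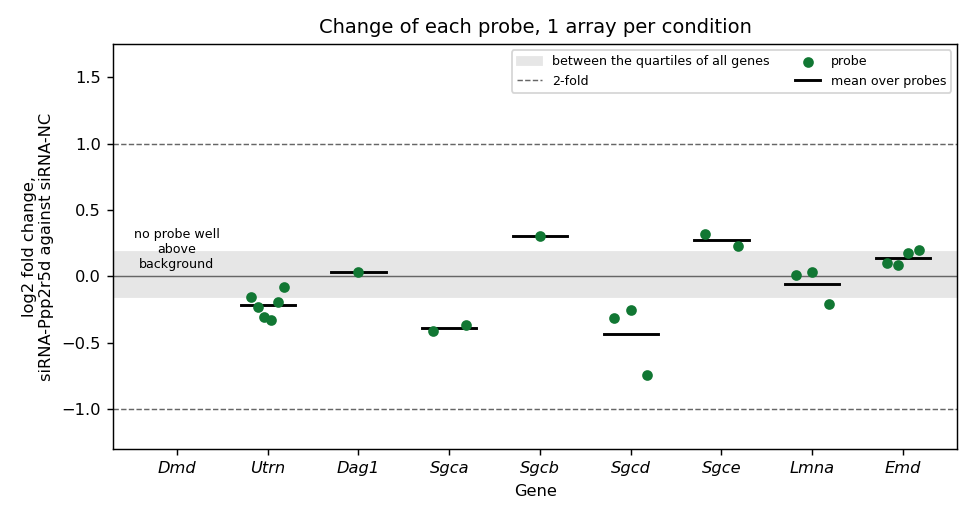
Log2 fold change of each probe well above background on both arrays (points) and the mean over probes (bars) for the 9 genes, siRNA-Ppp2r5d against siRNA-NC, 1 array per condition. The grey band runs between the quartiles of 20311 genes, and no gene reaches the dashed lines at 2-fold.

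Of the 35 probes, 22 had signal well above background in both conditions and 12 in neither. The remaining probe, of *Utrn*, was left out because its siRNA-NC spot was marked as an outlier. Of the 22 probes, 12 were lower and 10 were higher. Across all genes, 46.1% of 31611 probes were lower. The spread between spots on the same array pair was small, with a median SD of 0.039 on the log2 scale over 144 probes printed 10 times. This SD covers the array only and not the difference between cultures. The SD given below for a gene is over its probes.

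**Figure D2:**
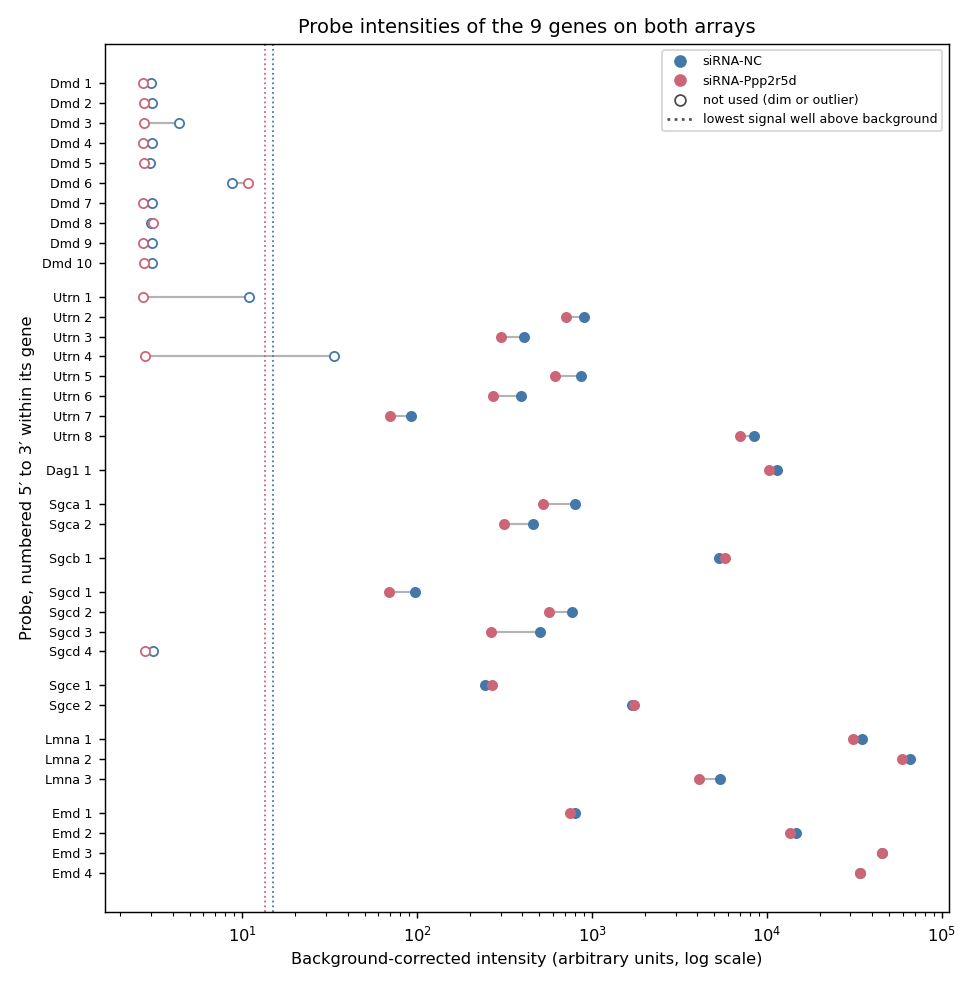
Background-corrected intensity of the 35 probes of the 9 genes for siRNA-NC and siRNA-Ppp2r5d, on a log axis, with probes numbered 5′ to 3′ within each gene. Filled points are the 22 probes in use, open points are the 13 not used, and the dotted lines mark the lowest signal well above background, 14.9 and 13.5. All 10 Dmd probes lie left of these lines.

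Dystrophin and utrophin have a related structure, and their probes had to be told apart before their signals were read. The *Dmd* probes span 2391 kb and the *Utrn* probes 383 kb. Shown first are 2 *Dmd* probes that the files place on the transcript NM_007868 and 3 *Utrn* probes placed on NM_011682, each in full, 5′ to 3′ on the transcript strand.
Dmd probe 4, chrX:81132417-81132476, plus strand: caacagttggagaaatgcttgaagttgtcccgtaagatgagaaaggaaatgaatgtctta
Dmd probe 8, chrX:82389391-82389450, plus strand: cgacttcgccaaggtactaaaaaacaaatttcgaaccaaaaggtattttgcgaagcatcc
Utrn probe 2, chr10:12453709-12453768, minus strand: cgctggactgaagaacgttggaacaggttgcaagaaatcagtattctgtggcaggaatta
Utrn probe 5, chr10:12221228-12221287, minus strand: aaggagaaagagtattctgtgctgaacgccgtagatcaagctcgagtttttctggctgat
Utrn probe 7, chr10:12125761-12125820, minus strand: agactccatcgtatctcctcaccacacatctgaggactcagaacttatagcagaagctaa
Over the 80 pairs of a *Dmd* and a *Utrn* probe, the longest run of identical bases was 10. Coordinates here and below are those of the scanner files, in build mm9, and the exon or untranslated region each probe falls in was not analysed here.

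No *Dmd* probe reached the limit for a signal well above background in either culture. The intensities of the 10 *Dmd* probes ran from 2.97 to 8.75 for siRNA-NC and from 2.70 to 10.72 for siRNA-*Ppp2r5d*. On the same arrays the lowest signal well above background was 14.9 and 13.5. Both ranges lie below these limits. For 8 of the 10 probes on each array the software had replaced the signal by its own lower limit, so these values have no order. The software's looser flag, positive and significant against background on both arrays, was met by probe 6, at 8.75 and 10.72. No fold change was computed for *Dmd* under the main filter, and a difference between the conditions was not detectable at the limit used.

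Utrophin, which can stand in for dystrophin at the membrane, was measured and was lower on every usable probe. Of its 8 probes, 6 were well above background on both arrays. From 5′ to 3′, the first usable probe gave 904 for siRNA-NC and 709.9 for siRNA-*Ppp2r5d*, a log2 fold change of -0.16. The next gave 406 and 303, or -0.23.
The siRNA-*Ppp2r5d* array was also the lower in the middle of the gene. Probe 5 gave 860.2 and 610.1, or -0.30. Probe 6, which begins 263.9 kb from the first probe and next to probe 5, gave 390.1 and 272, or -0.33.
The last part of the gene showed the smallest and an intermediate difference. Probe 7 gave 91.7 and 70.1, or -0.20. Probe 8, the most 3′, gave 8447 and 6990.2, or -0.08.

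The mean of *Utrn* was -0.22 (SD 0.092 over 6 probes), 1.16-fold lower, and 19.6% of all genes had a lower log2 fold change. The other 2 *Utrn* probes gave no fold change. The most 5′ probe was dim on both arrays, at 11.0 and 2.71. Probe 4 gave 33.2 for siRNA-NC, on a spot marked for uneven background, and 2.77 for siRNA-*Ppp2r5d*. With that spot kept, the probe would be at least 2.16-fold lower.

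**Figure D3:**
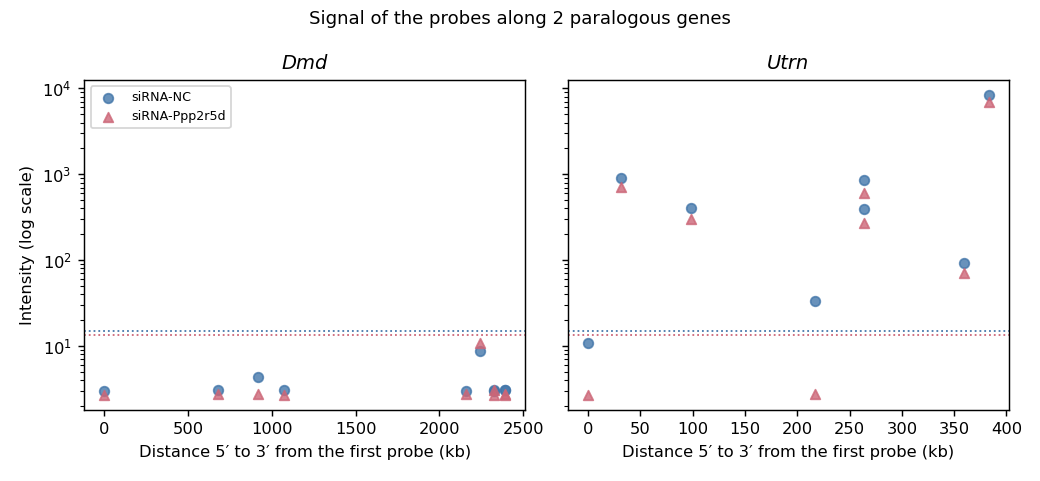
Intensity (log axis) of the 10 Dmd and 8 Utrn probes against their distance from the most 5′ probe in kb, circles for siRNA-NC and triangles for siRNA-Ppp2r5d, with the lowest signal well above background as dotted lines. All Dmd probes lie under the lines along 2391 kb, and the 6 usable Utrn probes have the triangle under the circle. The Utrn probe with one point on each side of the lines is the one left out as an outlier.

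Dystroglycan, the laminin receptor at the centre of the complex, was nearly level. Its 1 probe, at chr9:108108324-108108383 on the minus strand, gave 11374 for siRNA-NC and 10210.3 for siRNA-*Ppp2r5d*, so its log2 fold change was 0.04, with 51.8% of all genes lower. The sign turned in 5 of 10 other settings, down to -0.19 when arrays were scaled to spike-in probes.

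The 4 sarcoglycans, single-pass membrane proteins that associate with dystroglycan, lay on both sides of 0. *Sgca* and *Sgcd* were lower and *Sgcb* and *Sgce* were higher. Probe 1 of *Sgca* and of *Sgce* and probe 2 of *Sgcd*, its brightest, are shown whole to identify the transcripts. They are followed by the first 30 bases of the single *Sgcb* probe and of *Sgcd* probe 3. That *Sgcd* probe had the largest difference among the 22 usable probes.
Sgca probe 1, chr11:94824546-94824605, minus strand: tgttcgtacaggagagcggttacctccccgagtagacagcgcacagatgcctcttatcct
Sgcd probe 2, chr11:46939058-46939117, minus strand: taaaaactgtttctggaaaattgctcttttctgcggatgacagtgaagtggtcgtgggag
Sgce probe 1, chr6:4641640-4644080, minus strand: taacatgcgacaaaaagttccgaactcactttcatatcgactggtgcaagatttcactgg
Sgcb probe 1, chr5:74026579-74026638, minus strand: acttgtaattattttacctggggagcacca
Sgcd probe 3, chr11:46784687-46784746, minus strand: ccttgcacactctatgcaaaacttttgtaa
The interval of the *Sgce* probe covers 2441 bases of the genome, more than the length of a probe, so it crosses an intron. The paralogues *Sgca* and *Sgce* had probes that shared a run of at most 6 bases, and *Sgcb* and *Sgcd* probes shared at most 7 bases.

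*Sgca* encodes α-sarcoglycan, the form typical of striated muscle. Its first probe gave 796 for siRNA-NC and 525 for siRNA-*Ppp2r5d*, a log2 fold change of -0.41. Its second probe, which starts 68 bases further along the transcript, gave 462 and 313, or -0.37. Both probes were lower by nearly the same amount, and the mean was -0.39 (SD 0.029 over 2 probes), 1.31-fold lower. Of all genes, 9.86% were lower still.

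*Sgcd* encodes δ-sarcoglycan, a core subunit whose loss causes cardiomyopathy in rodents. Its 3 usable probes were all lower for siRNA-*Ppp2r5d*, by unequal amounts. The most 5′ probe gave 97.5 for siRNA-NC and 68.7 for siRNA-*Ppp2r5d*, a log2 fold change of -0.31. Probe 2, placed on NM_011891, gave 767 and 565, or -0.25. Probe 3, placed on the predicted transcript XM_011249011, gave 505 and 264, or -0.74.
Probe 3 was 1.67-fold lower and was the only one of the 22 usable probes past 1.5-fold. The mean was -0.44 (SD 0.27 over 3 probes), 1.35-fold lower, with 8.13% of all genes lower still. On probe 2 alone, the brightest, *Sgcd* was 1.19-fold lower. Probe 4 was dim on both arrays, at 3.08 and 2.78.

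*Sgcb* encodes β-sarcoglycan, the partner of δ-sarcoglycan in the core of the subcomplex. Its probe gave 5315 for siRNA-NC and 5741 for siRNA-*Ppp2r5d*, so that it was the higher for siRNA-*Ppp2r5d* before scaling as well as after it. The log2 fold change was 0.30 or 1.23-fold higher, with 12.1% of all genes higher still. It rests on 1 probe.

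*Sgce* encodes ε-sarcoglycan, a broadly expressed paralogue of α-sarcoglycan. Its first probe gave 244 for siRNA-NC and 266 for siRNA-*Ppp2r5d*, a log2 fold change of 0.32. Its second probe gave 1682 and 1727, or 0.23. Both probes were higher, and the mean was 0.27 (SD 0.061 over 2 probes), 1.21-fold higher, with 14.4% of all genes higher still. Thus the striated-muscle form was lower and its broadly expressed paralogue higher on these arrays, and each difference was under 1.5-fold.

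The directions of *Utrn*, *Sgca* and *Sgcd* (lower) and of *Sgcb* and *Sgce* (higher) held in all 10 other settings of scaling, background and filtering. In *Utrn*, *Sgca* and *Sgcd* all usable probes were lower. That makes 3 of the 6 genes with several usable probes, and among all genes it was so for 26.4% of 7139. In *Sgce* and *Emd*, also among the 6, all usable probes were higher. The share of all genes with every probe higher was not computed. Genes were not matched for their number of probes, so the shares do not set the 6 genes apart. Scaling to spike-in probes moved the median of all genes by -0.23, and it left *Sgcb* at 0.08 and *Sgce* at 0.05.

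The lamina genes *Lmna* and *Emd* had all of their 7 probes well above background on both arrays. *Lmna* gives rise to lamin A and lamin C by alternative splicing, and the array carries 2 probes placed on variant NM_019390 and 1 placed on NM_001002011. The first is shown in full and the other 2 by their first 30 bases. The NM_001002011 probe differed in its change from the 2 placed on NM_019390.
Lmna probe 1, chr3:88287262-88287321, minus strand, NM_019390: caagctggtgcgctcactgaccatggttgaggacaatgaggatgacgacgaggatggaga
Lmna probe 2, chr3:88287132-88287191, minus strand, NM_019390: agcctagggcagctctcccacctccatgcc
Lmna probe 3, chr3:88285331-88285390, minus strand, NM_001002011: tgcttgctttttctatattttatttagaca
Probes 1 and 2 lie 130 bases apart both in the genome and in the transcript, so no intron separates them. Which of the probes also match the other variant was not analysed here.

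Both NM_019390 probes were close to 0 after scaling. Probe 1 gave 34968 for siRNA-NC and 30878 for siRNA-*Ppp2r5d*, a log2 fold change of 0.01. Probe 2 was printed on 10 spots, which ran from 64476 to 67098 with a median of 66361 for siRNA-NC, and from 57798.5 to 59969 with a median of 59056 for siRNA-*Ppp2r5d*. The spots of the 2 arrays did not overlap before scaling.
After scaling, the difference of probe 2 was 0.03 (SD 0.020 over 10 spots), with spots on both sides of 0, from -0.01 to 0.06. The scaling of the arrays thus set the sign of this value.

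The NM_001002011 probe was lower. It gave 5353 for siRNA-NC and 4062 for siRNA-*Ppp2r5d*, a log2 fold change of -0.21 or 1.15-fold lower. The mean of *Lmna* was -0.06 (SD 0.13 over 3 probes), which is smaller than the spread between its probes. On the brightest probe alone it was 0.03, and it was -0.18 with quantile normalization and -0.28 with spike-in scaling.

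*Emd* encodes emerin, which binds lamin A and is lost in X-linked Emery-Dreifuss muscular dystrophy. Its 4 probes were close to each other in change. The first is shown in full, with the first 30 bases of the 2 most 3′ probes, which are nearly the same sequence and do not measure *Emd* independently.
Emd probe 1, chrX:71500808-71500867, plus strand: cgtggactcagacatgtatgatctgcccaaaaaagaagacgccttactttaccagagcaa
Emd probe 3, chrX:71506834-71506893, plus strand: ccacttttaacttggactagtgtaactcct
Emd probe 4, chrX:71506835-71506894, plus strand: cgcttttaacttggactagtgtaactcctt
Aligned without gaps, probes 3 and 4 matched at 56 of 59 bases and differed at 3. Probes 1 and 2 lie 871 bases apart in NM_007927 and 2166 bases apart in the genome.

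For *Emd*, probe 1 gave 800.1 for siRNA-NC and 751 for siRNA-*Ppp2r5d*, a log2 fold change of 0.10. Probe 2 gave 14613 and 13576, or 0.08. Probes 3 and 4, placed on a predicted transcript unlike probes 1 and 2, gave 45740 and 45299, and 33832 and 34010.4, or 0.18 and 0.20.
All 4 probes were higher after scaling, although 3 of them had the lower intensity for siRNA-*Ppp2r5d*. The mean was 0.14 (SD 0.056 over 4 probes, the near-identical probes 3 and 4 counted separately), with 31.3% of all genes higher still. It was 0.05 with quantile normalization and -0.09 with spike-in scaling, so its direction depended on the scaling.

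Other genes of the same pathways were taken from 3 lists written from general knowledge, and a gene counts as changed where it was at least 2-fold different. Of 24 further partners of the dystrophin complex (syntrophins, dystrobrevins, laminin α2 and others), 20 were well above background on both arrays, 7 higher and 13 lower. Among all genes 46.1% were lower. The median of the partners was -0.13, against 0.02 for all genes, and it ran from -0.36 with spike-in scaling to -0.04 with no filter on dim probes. Of the 20, 1 was past 2-fold, against 1.93% of all genes. That gene was *Sntg2*, which encodes γ2-syntrophin, an adaptor that binds dystrophin-family proteins. Its brighter probe gave 310.4 for siRNA-NC and 562 for siRNA-*Ppp2r5d*, and its log2 fold change was 1.12 over 2 probes (1.05 and 1.19).
With normexp background correction it was under 2-fold.

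The lowest of these partners was *Sspn*, which encodes sarcospan, the tetraspan-like protein that binds the sarcoglycans. Its 1 probe gave 8804 for siRNA-NC and 4375 for siRNA-*Ppp2r5d*, a log2 fold change of -0.82 or 1.76-fold lower. *Sntg2* and *Sspn* were the 2 of 20 partners past 1.5-fold, against 7.98% of all genes. Another sarcoglycan gene, *Sgcz* (ζ-sarcoglycan), was not well above background on either array, like *Sntg1*, *Cav3* and *Krt19*.

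All 18 listed genes that build the laminin-binding sugar chain of dystroglycan, or supply its precursors, were measured, 13 higher and 5 lower. None was past 2-fold, against 1.93% of all genes. The median of the 18 was 0.07, and -0.15 under spike-in scaling. *B3galnt2*, a glycosyltransferase of the same chain, was the highest at 0.53 over 3 probes, with 2500.4 and 3088 on the brightest.

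All 24 further genes of the lamina and of the LINC complex, which couples the lamina to the cytoskeleton, were measured, 13 higher and 11 lower. Their median was 0.03, and it was below 0 in 3 of 10 other settings. *Nrm* (nurim), an inner nuclear membrane protein, was at -1.14 over 2 probes, from -1.15 to -1.13. It was the 1 of 24 genes past 2-fold and past 1.5-fold, against 1.93% and 7.98% of all genes. Its brighter probe gave 783 for siRNA-NC and 312 for siRNA-*Ppp2r5d*. With normexp background correction *Nrm* was under 2-fold as well. *Narf*, whose product binds prelamin A, was the highest at 0.43 on 1 probe, with 547 and 643.

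The other lamins and the protease of lamin A are named here for their role. *Lmnb1* (lamin B1) gave 1622 for siRNA-NC and 1105 for siRNA-*Ppp2r5d*, a log2 fold change of -0.36 on 1 probe. *Lmnb2* (lamin B2) was at -0.21 over 2 probes. *Zmpste24*, which trims prelamin A to lamin A, was at 0.03 over 2 probes. Each of these differences was under 1.5-fold.

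**Figure D4:**
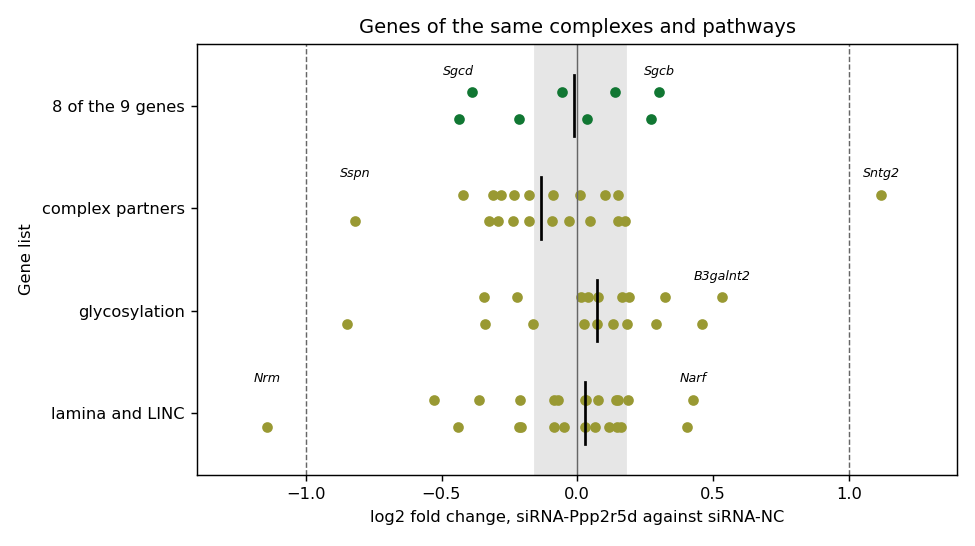
Log2 fold change of 8 of the 9 genes and of the measured genes of 3 pathway lists (20, 18 and 24 genes), siRNA-Ppp2r5d against siRNA-NC, 1 array per condition. Black bars are medians, the grey band runs between the quartiles of all genes, the dashed lines are 2-fold, and genes at the ends of the rows are named where the text gives them. Sntg2 and Nrm lie past 2-fold.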

How the data were processed

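The authors deposited the scanner output of 2 Agilent one-colour arrays, with a background-corrected intensity and quality flags per spot from Feature Extraction 10.7.1.1, and a table of log2 values per probe. The deposited log2 values matched a quantile normalization of the intensities with a median absolute difference of 0.00104. Probe positions are those of the files, in build mm9.

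From the intensities, control spots and those marked as outliers (226 on the siRNA-NC array, 188 on the other) were left out. Spots of a probe were averaged on the log2 scale and set relative to the array's 75th percentile of non-control probes. Probes of a gene were averaged where well above background on both arrays. With 1 array per condition no test was run. The methods of the study name a fold of 2 with a p-value, which 1 array per condition cannot give.

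The 9 genes, the 3 pathway lists and the marker lists were chosen with earlier results of these data known. The rule named the 9 genes, Ppp2r5d, and in each list the genes past 1.5-fold, the highest and the lowest. Some genes that it named are not reported. Other pathway genes were named for their role, with their values known. The lists of partners and of smooth muscle markers share Des.

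The gene step was tested on simulated data with planted changes past 2-fold. Such a test checks the computation and does not cover smaller differences or differences between cultures. The software was Python 3.11.15 (pandas 2.3.3, NumPy 2.4.6, matplotlib 3.10.9) and, for normalization alternatives, limma 3.58.1 in R 4.3.3.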

Additional observations from a re-analysis of the deposited data

How the results depend on the processing

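None of the measured members was past 2-fold in any of the 10 other settings, and none was past 1.5-fold on the main scaling. Under spike-in scaling *Sgcd* (-0.66) and *Sgca* (-0.62) were past 1.5-fold. The median of the measured members was -0.01, and it became -0.12 with quantile normalization, cyclic loess or the authors' log2 values, -0.10 with normexp at an offset of 50, and -0.24 with spike-in scaling. It became 0.035 with no filter on dim probes or with probes positive and significant on both arrays. Under these looser filters 9 members were measured, *Dmd* included, and under the second the other 8 kept their main values. With the brightest probe of each gene the median became 0.032. The number of lower genes was 4, and it was 5 with quantile normalization, cyclic loess, normexp or the authors' values. It was 6 under spike-in scaling and 3 for the brightest probe. The count of glycosylation genes past 2-fold was 0, and 1 with spike-in scaling, where 2.43% of all genes were 2-fold lower and 0.463% higher. With normexp, where 0.271% of all genes were 2-fold higher and 0.246% lower, the counts of partners and of lamina genes were 0 and 0. At 1.5-fold on the main scaling the counts were 2 partners, 1 glycosylation gene and 1 lamina gene, against 7.98% of all genes. The log2 fold change ranged over 10 settings from -0.45 to -0.08 for *Utrn*, -0.62 to -0.33 for *Sgca*, -0.66 to -0.25 for *Sgcd*, 0.08 to 0.33 for *Sgcb* and 0.05 to 0.30 for *Sgce*. *Dmd* had a value only with the looser filters, 0.05 and 0.48, both from probes not well above background. The 0.05 includes the probes whose signal the software had replaced by its own lower limit. The -0.45 of *Utrn* came with no filter on dim probes and includes its most 5′ probe. The siRNA-*Ppp2r5d* signal of that probe had been replaced in the same way. Spike-in scaling moved every gene by the same -0.23. The causes of the other shifts in fold change were not tested. No paired analysis was possible because each condition had 1 array, so no replicate could be left out.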
